A study of Mus musculus with 8 samples.

Results

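The regions described here are 1-kb windows of the mouse genome, called tiles below, that lie at least 50 kb from the body of every protein-coding gene. They were chosen by position, CpG content and depth, with no use of methylation: chromosomes 1 to 19, GENCODE mouse release 21 gene models on build mm10 (GRCm38), at least 5 CpGs listed in all 4 libraries and at least 20 reads in each library. In all, 402184 tiles met the rule, 26.9% of the 1497668 autosomal tiles that passed the same limits on CpGs and reads (1530528 with the X chromosome). They are called distal tiles, and the other 1095484 autosomal tiles are called nearer tiles. A distal tile may still lie in a gene of another kind, and 62395 of them (15.5%) overlapped an annotated non-coding RNA, pseudogene or antigen receptor segment.

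Methylation at the fifth carbon of cytosine was read by oxidative bisulfite sequencing of whole genomes, in which an oxidation step before bisulfite is meant to remove the signal of hydroxymethylated cytosine. The 4 groups were B cells and T cells of each sex, all from the spleens of C57BL/6J mice aged 6 to 8 weeks, with no treatment or transgene named in the labels. B cells were resting CD43- cells, T cells were naive CD4+ cells sorted as CD62L high, CD44 low and CD25-, and each sample pooled cells from several mice. The labels list 2 samples in each group but 1 file for both. The number in each file name matches 1 of the 2 sample numbers of its group, but whether a file holds 1 sample or both joined is not stated. Each group was therefore treated as 1 library and has no spread of its own.

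In mammalian cells most CpGs outside promoters carry a methyl group, and stretches of DNA that bind transcription factors, such as enhancers, are often locally unmethylated in the cell types that use them. Large gene-poor intervals, known as gene deserts, flank many regulators of lymphocyte identity, and enhancers of Bcl11b and Myc are known to lie there, far from the gene they act on. These files hold methylation only, so a low distal tile is described as low and not as an enhancer, and the nearest gene is given as a landmark and not as a target.

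The leading tiles are shown first, by the sequence of the 200 bases inside each tile that hold the most CpGs. Sequences are from the RefSeq copy of GRCm38, plus strand, 5′ to 3′, with every CG in capitals, since these are the bases whose methylation was read. The first 3 windows come from the distal tiles with the largest difference in favour of B cells.

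Tox window, chr4:7534350-7534549: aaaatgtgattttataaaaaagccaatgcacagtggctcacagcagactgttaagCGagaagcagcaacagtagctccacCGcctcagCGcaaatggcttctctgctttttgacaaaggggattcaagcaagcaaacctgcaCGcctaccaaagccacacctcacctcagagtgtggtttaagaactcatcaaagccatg
Sp4 window, chr12:118373435-118373634: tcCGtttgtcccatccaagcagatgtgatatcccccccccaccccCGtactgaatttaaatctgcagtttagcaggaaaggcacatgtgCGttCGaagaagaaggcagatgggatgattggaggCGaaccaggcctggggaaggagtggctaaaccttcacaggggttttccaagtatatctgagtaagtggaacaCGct
3110018I06Rik window, chr12:107124333-107124532: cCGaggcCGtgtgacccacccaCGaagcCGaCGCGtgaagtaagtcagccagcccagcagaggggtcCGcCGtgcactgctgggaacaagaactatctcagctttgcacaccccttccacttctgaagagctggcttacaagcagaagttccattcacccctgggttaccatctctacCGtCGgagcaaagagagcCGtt

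The Tox window held 4 CpGs, which were methylated in 97.4% of reads in female B cells (95% Wilson interval 91.1% to 99.3%, 78 reads), 0% in female T cells (upper bound 4.05%, 91 reads), 98.7% in male B cells (93.0% to 99.8%, 77 reads) and 0.877% in male T cells (0.155% to 4.80%, 114 reads). In the Sp4 window all 6 CpGs were unmethylated in both T cell libraries (0 of 71 and 0 of 89 reads, upper bounds 5.13% and 4.14%), against 90.8% in female and 92.7% in male B cells. All 11 CpGs of the 3110018I06Rik window followed suit, at 97.5% and 94.6% in the B cells of females and males against 0.656% and 0.395% in their T cells. Every CpG of these 3 windows was at 78.6% or more in both B cell libraries and at 3.70% or less in both T cell libraries. Such intervals cover counting error only, since reads carry no molecular identifiers and neighbouring CpGs share reads.

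The next 3 windows are the mirror image, from the distal tiles with the largest difference in favour of T cells.

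Qrsl1 window, chr10:43746388-43746587: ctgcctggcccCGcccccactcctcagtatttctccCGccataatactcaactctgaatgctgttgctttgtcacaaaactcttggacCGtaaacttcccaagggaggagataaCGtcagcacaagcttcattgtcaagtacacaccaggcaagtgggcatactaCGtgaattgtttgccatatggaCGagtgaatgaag
Cpm window, chr10:117557144-117557343: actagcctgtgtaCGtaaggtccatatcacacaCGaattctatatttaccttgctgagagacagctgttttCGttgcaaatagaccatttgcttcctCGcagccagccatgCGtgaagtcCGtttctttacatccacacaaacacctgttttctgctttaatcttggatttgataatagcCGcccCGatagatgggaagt
Zfp36l1 window, chr12:80004762-80004961: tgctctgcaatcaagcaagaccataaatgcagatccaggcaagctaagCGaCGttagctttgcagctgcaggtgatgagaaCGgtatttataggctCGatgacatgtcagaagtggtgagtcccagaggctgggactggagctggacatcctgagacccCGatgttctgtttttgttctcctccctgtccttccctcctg

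The 6 CpGs of the Qrsl1 window were methylated in 4.72% of reads in female B cells (2.18% to 9.92%, 127 reads), 95.6% in female T cells (90.1% to 98.1%, 113 reads), 1.02% in male B cells (0.180% to 5.56%, 98 reads) and 94.8% in male T cells (89.7% to 97.5%, 135 reads). The Cpm window, with 8 CpGs, stood at 4.17% and 3.66% in the B cells of females and males and at 93.5% and 92.5% in their T cells. The 5 CpGs of the Zfp36l1 window stood at 3.16% and 4.17% in B cells and at 96.2% and 91.0% in T cells. A last pair of windows shows DNA that was unmethylated in every library.

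Ptprc window, chr1:137900344-137900543: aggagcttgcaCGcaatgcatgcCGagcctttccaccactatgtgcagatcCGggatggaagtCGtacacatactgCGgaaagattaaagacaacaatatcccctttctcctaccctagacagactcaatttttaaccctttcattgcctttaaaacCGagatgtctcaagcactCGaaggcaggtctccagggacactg
Commd3 window, chr2:18608415-18608614: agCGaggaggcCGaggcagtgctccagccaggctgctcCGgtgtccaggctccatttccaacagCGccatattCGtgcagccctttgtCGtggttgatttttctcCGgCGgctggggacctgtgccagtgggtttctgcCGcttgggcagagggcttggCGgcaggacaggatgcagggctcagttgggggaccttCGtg

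No methylated read was seen in the Ptprc window in any library (86 to 101 reads, upper bounds between 3.66% and 4.28%). The Commd3 window had a level of 0.344% in female B cells (0.0607% to 1.92%, 291 reads) and no methylated read in the other libraries (187 to 330 reads). The windows were picked as the densest in CpGs in tiles selected for their levels, so they illustrate the tiles and are no independent evidence.

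Distal tiles were highly methylated in every library. The level of a tile, the share of all its reads that were methylated, had a median of 90.4% and 90.3% in the B cells of females and males and of 90.0% and 89.7% in their T cells. The middle 50% of tiles lay between 84.9% and 94.0% in female B cells and the bounds were similar in the other libraries, with 84.1% and 93.4% in male T cells. Levels of 70% or more were found in 94.0% to 94.6% of distal tiles, levels from 30% to 70% in 4.69% to 5.14%, and levels under 30% in 0.687% to 0.865%. In nearer tiles the median was higher in the same order (92.0%, 92.0%, 90.8% and 90.6%), but tiles under 30% were also more frequent, at 4.02% to 4.71%. Distal tiles held a median of 7 listed CpGs against 9 in nearer tiles, and a median of 102 to 122 reads per library against 133 to 162. These differences between sets of tiles are descriptions and were not tested, since tiles of the same library are not replicates.

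**Figure D1:**
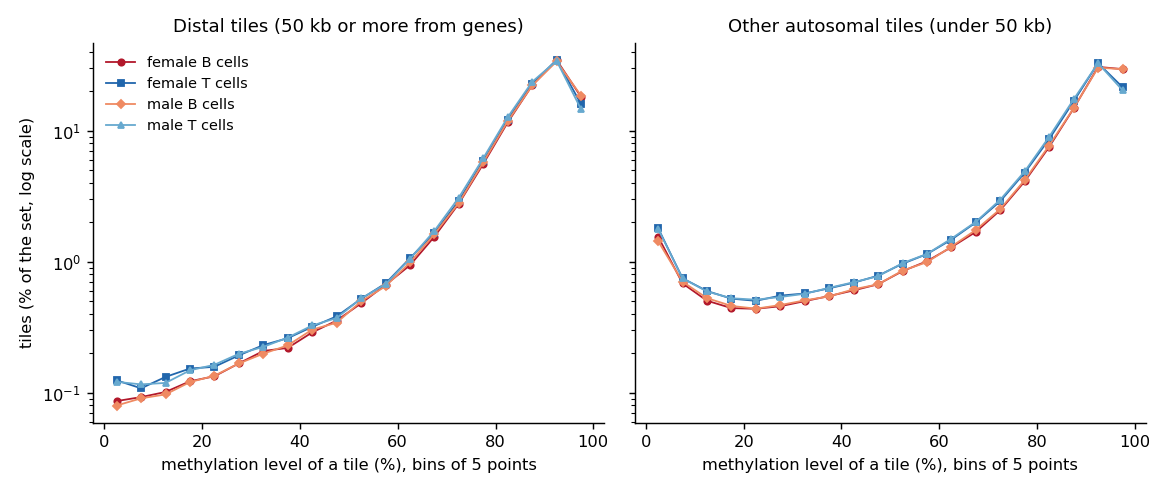
Share of tiles (%, log scale) in each bin of methylation level (5 points wide) for distal tiles (left) and nearer autosomal tiles (right), with 1 line per library. In both sets the bin from 90% to 95% is the fullest, and the lowest bin holds 1.43% to 1.80% of nearer tiles but 0.0796% to 0.124% of distal tiles.

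Depth and labels were checked on the whole libraries. The 4 files held 280919817 to 354634149 reads at CpGs, with a median of 14 to 17 reads per autosomal CpG, least in male B cells. Within 1 kb of the gene start, all 8 T cell markers were at least 20 points lower in T cells (0.566% to 24.4% in T cells, 65.5% to 94.9% in B cells) and all 6 B cell markers were at least 20 points lower in B cells (6.67% to 28.7% against 37.9% to 95.2%). Both cytotoxic T cell markers were also lower in the libraries of T cells, with Cd8b1 at 29.2% and 29.7% in female and male T cells against 88.5% and 91.6% in B cells. None of the 3 natural killer, 5 myeloid or 3 erythroid markers differed by 20 points.

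The typical shift between the cell types was small. Mean levels over distal tiles were 87.5% in the B cells of both sexes, against 87.0% and 86.8% in female and male T cells. The median B minus T difference over distal tiles was 0.411 points, with 0.332 points in females and 0.536 points in males. It was 0.227 points without the male T cell library. B cells were higher in both sexes at 31.2% of distal tiles and lower in both sexes at 22.9%. The methylated share of mitochondrial reads, a background read the same way, also moved with cell type: it was 0.271% and 0.727% in the B cells of females and males and 0.0733% and 0.0709% in their T cells. Its part in the shift was not tested.

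Differences at single tiles were large. A tile was called between B and T cells at a Benjamini-Hochberg adjusted p under 0.05, from the quasi-likelihood test of edgeR over all tested tiles, where the mean difference was also 20 points or more. Of the distal tiles, 5420 were called (1.35%, against 3.21% of all autosomal tiles), namely 3756 with higher levels in B cells (0.934% of distal tiles, against 2.38% of autosomal tiles) and 1664 with higher levels in T cells (0.414%, against 0.823%). Calls were thus less frequent among distal tiles than over all autosomal tiles in both directions. Both sexes moved the same way at 5418 called tiles, and 20 points were reached in each of them at 4272, although the selection on a mean of 20 points favours such accord. At 396 of the 5420 called tiles the difference was 60 points or more, with 307 higher in B cells and 89 higher in T cells. The same count over all autosomal tiles is not given here. With 4 libraries the test had 1 residual degree of freedom per tile and judged each tile against a spread shared by all tiles. The p-values therefore rest on how alike the B minus T difference was in females and males over the tiles, which may be a technical likeness.

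Many called tiles were at intermediate levels in one cell type, and in the other their medians lay below the 90.4% to 89.7% of all distal tiles. At tiles called higher in B cells, the median level was 86.2% and 86.4% in female and male B cells against 48.7% and 48.8% in female and male T cells. At tiles called higher in T cells, it was 84.3% and 83.9% in T cells against 49.1% and 49.4% in B cells. A level under 30% in both libraries of one cell type and of 50% or more in both of the other was found at 500 tiles low in T cells (0.124% of distal tiles) and at 164 tiles low in B cells (0.0408%). The same shares over all autosomal tiles are not given here, so no comparison with them is made.

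The leading tile in favour of B cells lay between Tox and Car8, 542 kb from Tox, a nuclear factor needed for T cell development (chr4:7534001-7535000, 5 CpGs, no annotated gene). Its level was 95.6% in female B cells (89.1% to 98.3%, 90 reads), 0% in female T cells (upper bound 3.74%, 99 reads), 97.8% in male B cells (92.4% to 99.4%, 92 reads) and 0.758% in male T cells (0.134% to 4.17%, 132 reads). The difference of 96.3 points (adjusted p = 6.48e-76, edgeR) spanned almost the full scale in both sexes. Another tile, 456 kb from Tox (chr4:7448001-7449000), stood at 90.9% and 96.1% in B cells and at 4.76% and 2.00% in T cells.

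Sp4, a zinc finger transcription factor of the Sp family, was the nearest gene of the next tile, 72 kb away (chr12:118373001-118374000, 7 CpGs). Its level was 92.4% in female B cells (85.1% to 96.3%, 92 reads) and 94.0% in male B cells (88.1% to 97.0%, 116 reads), and no methylated read was seen in female T cells (84 reads) or male T cells (102 reads). B and T libraries were separated by 92.4 points or more (mean difference 93.2 points, adjusted p = 3.04e-67, edgeR).

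The largest group of adjoining tiles, with gaps under 5 kb, lay in the desert between Vrk1 and 3110018I06Rik (chr12:107116001-107150000). Across 3110018I06Rik, 760 kb from this group, lies Bcl11b, the transcription factor that fixes the T cell fate of thymocytes, and the desert downstream of Bcl11b is known for a distant T cell enhancer. The group held 24 called tiles in 34 kb, with differences from 29.8 to 92.9 points and a median of 57.8 points. Over these tiles, B cell levels ran from 77.3% to 94.1% in females (median 86.9%) and from 76.1% to 95.2% in males (median 88.5%). T cell levels ran from 0.977% to 65.0% in females (median 28.6%) and from 1.56% to 56.8% in males (median 29.0%). The B and T ranges did not overlap, but the 24 tiles were chosen for being called higher in B cells. The same 34 kb held 28 tested tiles, and those not called are left out of the ranges. The group's lowest point in T cells was the tile chr12:107124001-107125000, with 19 CpGs and 252 to 512 reads per library (92.9 points, adjusted p = 1.29e-175, edgeR). The whole interval from Vrk1 to 3110018I06Rik held 109 called tiles among 1182 (9.22%, against 1.35% of all distal tiles). Higher levels in B cells were found at 107 of the 109, where 69.3% of all distal calls went that way. Over all tiles of the interval, called or not, females had a median difference of -0.123 points and males one of 0.124 points.

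The desert between Satb1 and Kcnh8 on chromosome 17 had the most called tiles of any interval between neighbouring genes. Satb1 organises chromatin in thymocytes and T cells, and Kcnh8 encodes a potassium channel. Of its 373 distal tiles, 118 were called (31.6%, against 1.35% of all distal tiles). All 118 were higher in B cells, against 69.3% of all distal calls. Non-coding genes overlapped 197 of its tiles and 76 of the called ones, so the interval is poor in protein-coding genes only. The called tiles were spread from 50.7 to 681 kb from Satb1, and 26 of them differed by 60 points or more. The median level over all its distal tiles also differed, at 94.4% and 94.3% in female and male B cells against 82.9% and 84.5% in female and male T cells. Its leading tile, 635 kb from Satb1 and 134 kb from Kcnh8 (chr17:52468001-52469000, 11 CpGs), stood at 91.7% (87.5% to 94.5%, 240 reads) and 93.1% (88.4% to 96.0%, 175 reads) in the B cells of females and males. The same tile had no methylated read in 218 reads of female T cells and a level of 0.481% in male T cells (0.0849% to 2.67%, 208 reads). A further tile 518 kb from Satb1 (chr17:52351001-52352000) stood at 91.1% and 93.5% in B cells and at 3.73% and 4.18% in T cells.

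**Figure D2:**
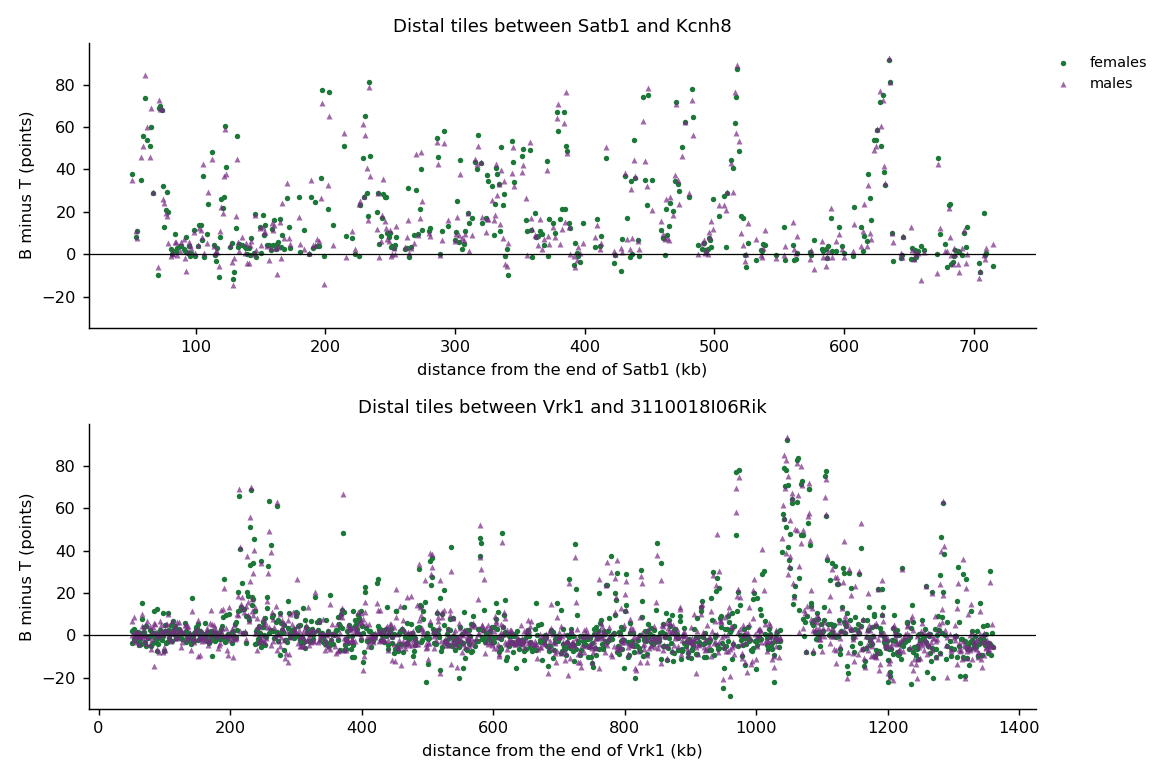
B minus T difference in methylation level (points) of each distal tile, in females (circles) and males (triangles), by distance (kb) from the edge of Satb1 (top) and of Vrk1 (bottom) with the higher coordinate. For Satb1, which lies on the minus strand, this edge is the start of the gene. Called tiles, which are not marked, lie along the whole Satb1 interval, with most differences above 0. In the Vrk1 interval the largest difference lies about 1047 kb from Vrk1, other called tiles are scattered, and most tiles lie close to 0.

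The other leading tiles in favour of B cells were nearest to Ets1, Myc, 4933412E24Rik and Cd83. Ets1, a transcription factor of T and B cells, was 181 kb from a tile at 89.2% and 95.1% in the B cells of females and males and at 1.82% and 1.01% in their T cells (chr9:32939001-32940000). It belonged to a group of 14 called tiles among 15 tested in 19 kb. Myc, which drives cell growth, was 835 kb from a tile at 89.1% and 87.7% in B cells and at 0% and 0.855% in T cells (chr15:62825001-62826000). On the other side of Myc, 1798 kb away and in an intron of the long non-coding RNA Gm2682, a tile nearest to 4933412E24Rik stood at 95.4% and 94.7% in B cells and at 4.71% and 2.82% in T cells (chr15:60186001-60187000). Cd83, a surface protein of activated B cells and dendritic cells, was 286 kb from a tile at 93.6% and 92.3% in B cells and at 6.04% and 7.28% in T cells (chr13:44089001-44090000). In each of these tiles both B cell libraries lay far above both T cell libraries.

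Among groups of adjoining tiles, the second in size lay near Dad1 on chromosome 14 (chr14:54159001-54185000, 22 called tiles in 26 kb). It covers joining segments of the T cell receptor alpha locus, which T cells rearrange with loss of the DNA between the joined segments. Over these 22 tiles, among 24 tested in the stretch, levels in T cells had a median of 44.2% in females and 41.7% in males. In the B cells of females and males it was 93.5% and 93.0%. Depth moved with the result there: reads per CpG, relative to the median autosomal tile, had a median of 0.598 and 0.525 in female and male T cells against 1.16 and 1.01 in B cells. Its part in the difference was not tested.

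In the other direction, the leading tile lay in a gene-poor stretch between Cd24a, a surface protein abundant on immature and resting B cells, and Qrsl1, a subunit of a mitochondrial amidotransferase. It was 162 kb from Cd24a and 127 kb from Qrsl1, over an exon of the long non-coding RNA 1700027J07Rik (chr10:43746001-43747000, 9 CpGs). Its level was 4.15% in female B cells (2.12% to 7.96%, 193 reads), 95.9% in female T cells (91.7% to 98.0%, 169 reads), 2.76% in male B cells (1.08% to 6.88%, 145 reads) and 95.9% in male T cells (92.2% to 97.9%, 197 reads). The difference was -92.4 points (adjusted p = 9.12e-103, edgeR). It led a group of 8 called tiles in 9 kb, with a median difference of -41.2 points. This group was the largest in this direction among tiles that met the limits on reads and depth and the minimum difference in each sex. Over all called tiles, the largest group in this direction held 11 tiles.

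Cpm encodes carboxypeptidase M, a membrane enzyme, and lay 72 kb from a tile at 4.11% and 4.46% in the B cells of females and males and at 93.5% and 93.7% in their T cells (chr10:117557001-117558000). Zfp36l1, an RNA-binding protein that promotes mRNA decay and is needed in B cell development, lay 103 kb from a tile at 5.29% and 6.04% in B cells and at 95.2% and 93.2% in T cells (chr12:80004001-80005000). Ebf1, a transcription factor that commits cells to the B lineage, lay 315 kb from a tile that was nearly free of methylation in B cells (chr11:45323001-45324000, 6 CpGs). Its level was 0.595% in female B cells (0.105% to 3.29%, 168 reads) and 0% in male B cells (upper bound 2.85%, 131 reads), against 83.1% (75.9% to 88.5%, 136 reads) and 78.8% (71.6% to 84.6%, 151 reads) in the T cells of females and males.

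The remaining leading tiles of this direction were nearest to Ppp2r5a (a regulatory subunit of a protein phosphatase), Lmo4 (a LIM-only transcription cofactor, with 2 tiles), Nxnl2, Mib1 (a ubiquitin ligase of Notch ligands) and Zfp619. Their differences ran from -78.9 points at the second Lmo4 tile to -85.7 points at Ppp2r5a, with B cell levels from 0.962% to 19.8% and T cell levels from 81.8% to 96.0%. Ralgps2 and Usp12 each lay next to a group of 6 called tiles. The Ralgps2 group (chr1:156994001-157004000) had a median level of 37.1% and 40.2% in female and male B cells against 87.2% and 89.5% in T cells, and the Usp12 group (chr5:146677001-146684000) had 42.4% and 43.9% against 88.3% and 91.5%. These medians cover the 6 tiles of each group only, among 10 tested tiles in the Ralgps2 stretch and 7 in the Usp12 stretch.

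**Figure D3:**
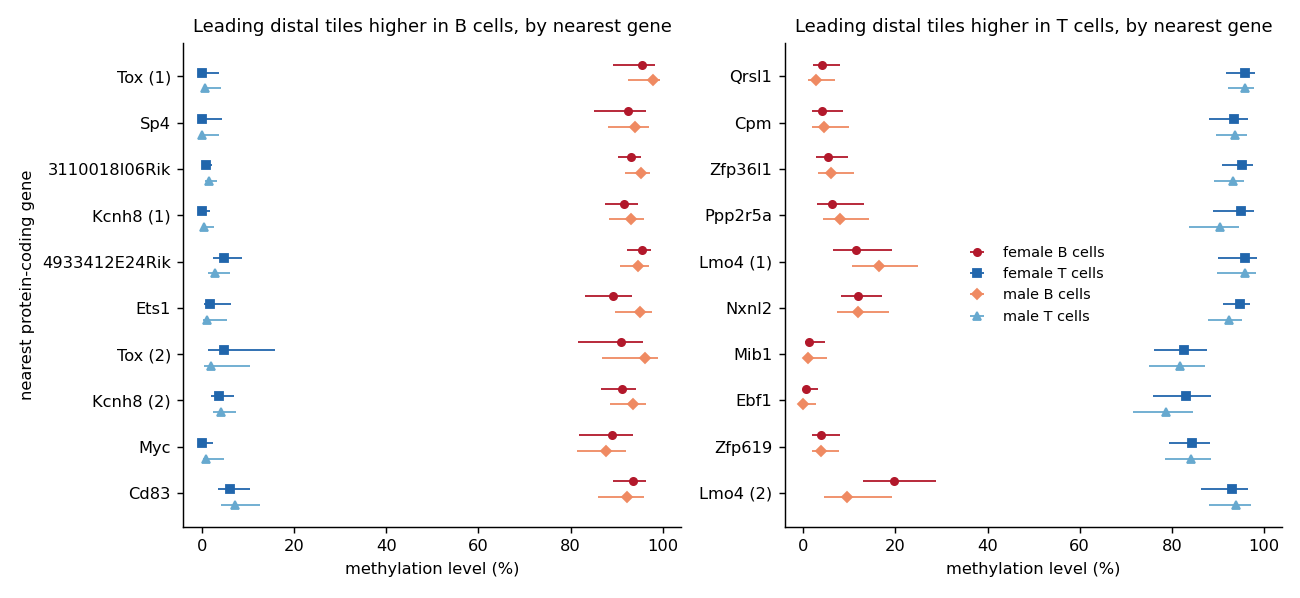
Methylation level (%) of the 10 leading distal tiles in each direction, named by nearest protein-coding gene, with 1 symbol per library and bars for 95% Wilson intervals. In all 20 tiles females and males of a cell type differ by far less than B and T cells do, a gap the tiles were chosen for; Tox, Kcnh8 and Lmo4 each name a pair of tiles.

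Differences fell off within a few kb, though not to the general level for tiles higher in B cells. Leaving out tiles near antigen receptor segments, the tiles next to a tile called higher in B cells had a median difference of 6.06 points, and those 5 kb away had 1.91 points. At 10 kb the median was still 1.53 points, against 0.409 points over all distal tiles left after the same exclusion. Beside tiles called higher in T cells, the median difference was -2.22 points at the adjoining tile and 0.018 points at 2 kb. At the level of CpGs, the mean in T cells fell from 79.6% and 79.3% (females and males) near 5 kb upstream to 44.2% and 44.1% at the centre of tiles called higher in B cells. B cell levels dipped much less at these tiles, from 85.3% in both sexes to 79.3%. At tiles called higher in T cells it was the B cell mean that fell, from 81.3% and 81.0% to 44.9% and 44.8%. Of 2425 groups of adjoining tiles higher in B cells, 1771 (73.0%) were a single tile and 84 had 5 or more tiles, and of 1273 groups higher in T cells, 1027 (80.7%) were a single tile and 10 had 5 or more. By tiles, groups of 5 or more held 617 of the 3756 called higher in B cells and 65 of the 1664 called higher in T cells.

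**Figure D4:**
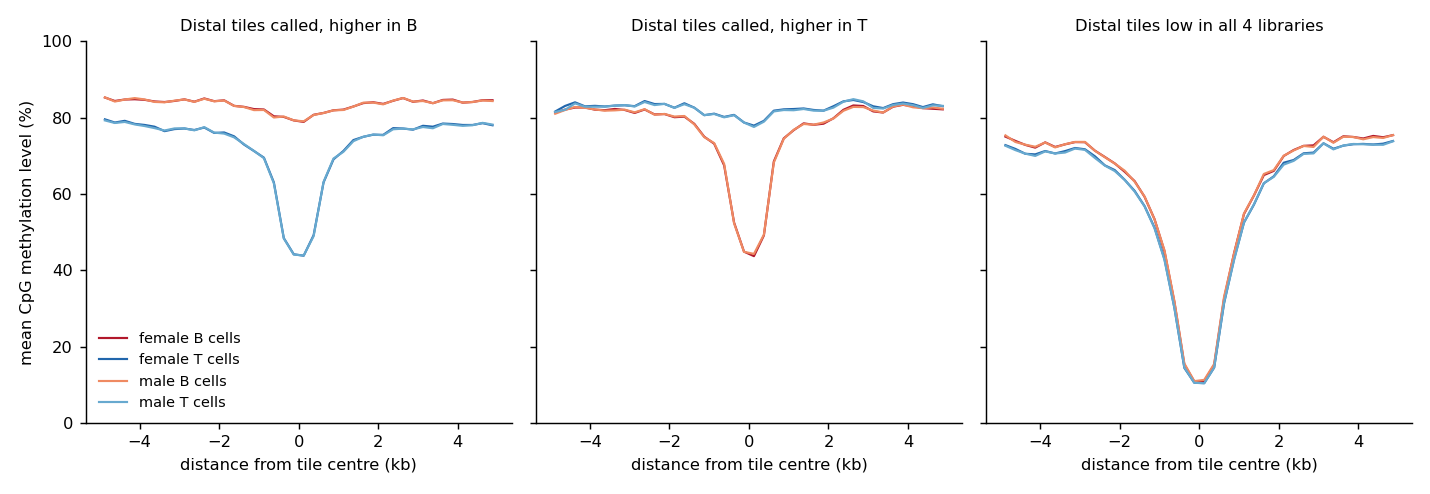
Mean CpG methylation level (%) in bins of 250 bases by distance (kb) from the centre of distal tiles called higher in B cells, called higher in T cells, or low in all 4 libraries, with 1 line per library. The lines of females and males of a cell type nearly coincide, and the steepest part of each dip spans about 2 kb. At tiles called higher in B cells, the T cell lines stay below the B cell lines out to the edges of the plot. The tiles were chosen for their levels, so the dip itself is a description.

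Calls were unevenly spread over deserts. Distal tiles fell into 2379 intervals between neighbouring protein-coding genes. Of these, 1450 intervals (61.0%) with 205264 tiles (51.0% of distal tiles) had no called tile, and the 101 intervals with the most calls held 50.2% of calls and 10.7% of distal tiles. These were large, with a median of 361 distal tiles against 84 over all intervals, and were picked by their calls. After the Satb1 and Vrk1 intervals, the most calls were found between Foxo1 and Cog6 (81 of 454 tiles, 68 higher in B cells), between Myc and Gsdmc (78 of 852, 54 higher in B cells) and beside the T cell receptor alpha segments between Olfr1507 and Dad1 (70 of 368, 67 higher in B cells). Calls in both directions occurred within 381 of the 929 intervals with a call. An example is the interval between Irf2bp2 and Tomm20, with 19 tiles higher in B cells and 17 higher in T cells among 212.

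The share of called tiles fell with distance from genes. Among tiles 50 to 100 kb from a gene 2.20% were called, against 1.57% at 100 to 200 kb, 0.915% at 200 to 500 kb, 0.462% at 500 to 1000 kb and 0.199% farther out. Of the 37 calls beyond 1000 kb, 24 were higher in T cells and 13 higher in B cells, whereas in each nearer range most calls were higher in B cells. The order was the same at like CpG content: among tiles with 5 to 9 CpGs the shares were 1.78%, 1.31%, 0.790%, 0.409% and 0.199%. At the bound of the rule, 2.45% of tiles at 50 to 55 kb were called, against 2.28% of those at 45 to 50 kb. Repeat content moved with the share too, from 1.87% of the tiles with at most 10% repeat-masked bases to 0.215% of those with over 75%. By chromosome, the share ran from 0.761% on chromosome 4 to 2.33% on chromosome 17.

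**Figure D5:**
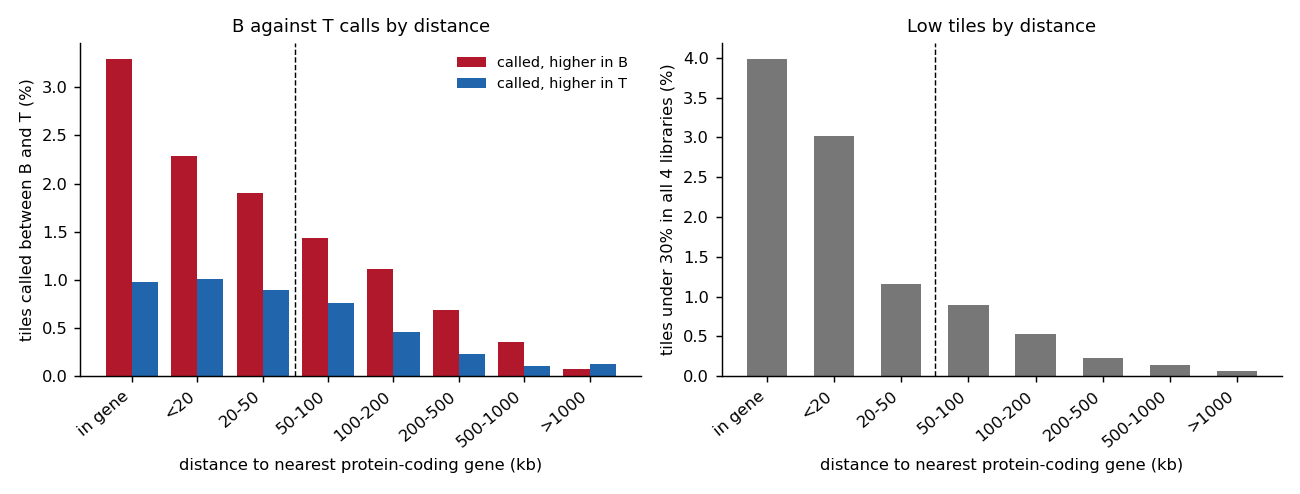
Share of autosomal tiles (%) called between B and T cells, by direction (left), and under 30% in all 4 libraries (right), by distance (kb) to the nearest protein-coding gene, with the 50-kb bound of distal tiles as a dashed line. The share called higher in B cells falls from 1.44% at 50 to 100 kb to 0.0698% beyond 1000 kb, the share called higher in T cells falls from 0.760% to 0.106% at 500 to 1000 kb and is 0.129% beyond, and low tiles fall from 0.894% to 0.0590%.

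Genes known in lymphocytes were taken from lists. These were drawn up with earlier results of these data known, so they describe the tiles and support nothing. Of 36 genes with roles in T cells, 19 were the nearest gene of some distal tile, and 16 of these had a called tile, against 1245 of 3868 over all such nearest genes. Their 4012 tiles included 415 called tiles (10.3%, against 1.35% of all distal tiles), 357 higher in B cells and 58 higher in T cells. All 16 genes had a tile higher in B cells, 13 of them also had a tile higher in T cells, and the list's median difference was 1.42 points, against 0.411 points over all distal tiles. Ctla4, Inpp4b and Rora had distal tiles but no call.

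Within the T cell list, Satb1 had 80 called tiles, Id2 (an inhibitor of E proteins) 42, Gata3 (the factor of helper T cells) 41, Foxo1 (a factor of naive lymphocytes) 40 and Ets1 39. These calls were among 381 tiles at Satb1, 373 at Id2, 633 at Gata3, 251 at Foxo1 and 390 at Ets1. All were higher in B cells at Satb1, 29 at Id2, 40 at Gata3, 29 at Foxo1 and 37 at Ets1, and the rest were higher in T cells. The leading Gata3 tile, 656 kb from the gene, stood at 78.4% and 87.5% in the B cells of females and males and at 3.98% and 4.27% in T cells (chr2:9200001-9201000). A tile 133 kb from Lef1, a partner of beta-catenin in T cells, stood at 95.1% and 94.4% in B cells and at 15.1% and 20.5% in T cells (chr3:130976001-130977000). Of the 126 tiles nearest to Lef1, 31 were called (24.6%, against 1.35% of all distal tiles). The leading Foxo1 tile, at 297 kb, stood at 93.8% and 96.3% in B cells and at 10.6% and 10.1% in T cells (chr3:52650001-52651000).

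Of 40 genes with roles in B cells, 16 were nearest to a distal tile and 13 had a call (against the same 1245 of 3868). Among their 3204 tiles, 154 were called (4.81%, against 1.35%), split between 75 higher in B cells and 79 higher in T cells, where 69.3% of all distal calls were higher in B cells. The genes differed in direction. All 10 called tiles of Ebf1, all 10 of Ralgps2, 16 of 18 of Bcl11a (a factor of B cell progenitors) and 9 of 10 of Mef2c (a factor of B cell survival) were higher in T cells. Called tiles were 4.22% of 237 at Ebf1, 34.5% of 29 at Ralgps2, 4.92% of 366 at Bcl11a and 2.55% of 392 at Mef2c. By contrast, 27 of 36 called tiles of Cd83, 13 of 15 of Bcl6 (the factor of germinal centres) and 13 of 18 of Tcf4 (an E protein) were higher in B cells. Pax5, Cr2 and Cd55 had distal tiles and no call.

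In this list the tile 82.5 kb from Prdm1, the regulator of plasma cells, stood at 17.3% and 14.7% in the B cells of females and males and at 92.7% and 90.7% in T cells (chr10:44611001-44612000). The leading Zeb2 tile, 77 kb from this zinc finger repressor, stood at 12.4% and 15.5% in B cells and at 85.9% and 88.7% in T cells (chr2:45194001-45195000). A Mef2c tile at 588 kb stood at 24.5% and 22.2% in B cells and at 97.1% and 94.6% in T cells (chr13:82915001-82916000). For the last the count was low, with 68 to 94 reads per library.

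Of 10 genes used by both lineages, 8 were nearest to a distal tile and 7 had a call, again beside 1245 of 3868 over all genes. Of their 2136 tiles 162 were called (7.58%, against 1.35%), 132 of them higher in B cells, beside 3756 of 5420 over all distal tiles. Myc had 57 among 727 tiles (7.84%) and Btg1, a brake on proliferation, had 41 among 384 (10.7%). The leading Btg1 tile stood at 93.6% and 91.9% in the B cells of females and males and at 15.8% and 14.1% in T cells (chr10:96727001-96728000). Cxcr4, the receptor for CXCL12, had 20 called tiles among 233 (8.58%), with 13 higher in T cells, although its leading tile was higher in B cells (77.6% and 83.7% against 10.1% and 9.22%, chr1:128782001-128783000). Klf6 and Tnfaip3 led with differences of 74.6 and 65.5 points, and Ptprc, which encodes CD45, with 55.9 points, all higher in B cells.

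Antigen receptor loci were a small part of the distal tiles. Within 50 kb of an immunoglobulin or T cell receptor segment lay 2249 tiles, 138 of them called (6.14%, against 1.35% of all distal tiles), and 91 of these (65.9%, against 69.3%) were higher in B cells. Beside T cell receptor alpha segments 64 of 67 called tiles were higher in B cells, among 359 tiles (18.7% called). Beside immunoglobulin kappa segments 23 of 25 were higher in T cells, among 917 tiles (2.73% called). Depth in T cells was 0.696 (females) and 0.668 (males) times the autosomal median at alpha segments, against 0.935 and 0.948 in B cells, and 0.430 and 0.408 times at the 6 tiles of the delta locus, where B cells had 1.12 and 1.07 times. At immunoglobulin heavy chain segments (20 of 634 tiles called, 12 higher in T cells) depth was lower in B cells, at 0.745 and 0.752 times in females and males against 0.961 and 0.976 in T cells. At kappa segments it was 0.845 and 0.858 times in B cells against 0.897 and 0.916 in T cells. The part of these depths in the calls was not tested. Without these 2249 tiles, 5282 distal tiles were called.

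Low tiles shared by both cell types were rarer than called tiles. Levels under 30% in all 4 libraries were found at 1889 distal tiles (0.470%), against 3.44% of nearer tiles, and 436 of them were under 10% in all 4. Low tiles were richer in CpGs, with a median of 15 against 7 over all distal tiles, and of the 185 distal tiles that met a CpG island criterion (GC content of 55% or more and an observed to expected CpG ratio of 0.65 or more) 94 were low. An annotated start of a gene of another biotype lay in 191 low tiles (10.1%), against 1.45% of all distal tiles. Over the low tiles the median level was 14.1% and 14.7% in the B cells of females and males and 12.6% and 12.9% in their T cells. The share of low tiles fell with distance from genes like that of calls, from 0.894% at 50 to 100 kb to 0.0590% beyond 1000 kb.

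The lowest distal tile with at least 10 CpGs lay between Foxn3 and Efcab11, at the start of a transcript of unproven coding status, Gm47196 (chr12:99641001-99642000, 12 CpGs). It had no methylated read in 141 to 207 reads per library, with upper bounds of 1.82% to 2.65%. A pair of tiles 162 and 164 kb from Ptprc, the gene of the pan-leukocyte antigen CD45, had levels of 0% to 0.372% in all libraries (chr1:137900001-137901000 and chr1:137898001-137899000). Both lay in the non-coding transcript Gm4258, whose start is in the second of them. A tile 63 kb from Commd3, with 34 CpGs and 457 to 763 reads, had levels of 0% to 0.326% (chr2:18608001-18609000), and the nearest annotated start of another biotype was 33102 bases away. Another 3 of these tiles were CpG dense, with 101 to 127 CpGs: 1 lay 879 bases from the start of Mir17hg, the host of the miR-17 cluster (chr14:115041001-115042000), and a pair lay at the start of Zswim6, which GENCODE release 21 does not class as protein-coding (chr13:107889001-107891000). The last, 57 kb from the zinc finger gene Zfp217, had levels of 0% to 0.418% (chr2:170205001-170206000).

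Low tiles formed 1455 groups, 1181 of them a single tile. The longest group spanned 22 kb with 17 low tiles between Mef2c and Tmem161b and held Mir9-2, a microRNA gene of the nervous system (chr13:83718001-83740000). Its low tiles had a median level of 6.32% and 7.28% in B cells (females and males) and of 6.28% and 5.81% in T cells. Next came 15 low tiles in 17 kb between Npvf and Nfe2l3, with no annotated gene (chr6:51168001-51185000, medians of 8.04% to 9.76%), and 10 in 14 kb around Mir124a-2, another neuronal microRNA (chr3:17786001-17800000, medians of 11.2% to 12.4%). Another 9 lay beside Nr2f2, a nuclear receptor of developing tissues (chr7:70279001-70289000, medians of 5.60% to 7.10%), and 9 in Dleu2 (chr14:61680001-61690000, medians of 7.76% to 13.7%). At Dleu2 the highest of these medians was that of male B cells.

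Short motifs of lymphocyte factors were counted on both strands of each tile, as a description of its letters. The RUNX motif TGTGGTT was in 33.1% of tiles called higher in B cells, 24.2% of those called higher in T cells and 19.8% of all distal tiles. The TCF/LEF motif CTTTGAT was in 25.1%, 16.8% and 19.2% in the same order. An EBF motif, CCCNNGGG, was in 16.5%, 35.1% and 14.4%, and in 46.3% (76 of 164) of the tiles low in B cells only. The E2A motif CAGCTG was in 40.8%, 46.9% and 30.7%. The octamer ATGCAAAT was in 6.23%, 9.50% and 9.43%, and the MEF2 motif TATTTTTA in 13.7%, 16.0% and 16.4%. Tiles low in all 4 libraries held the RUNX motif in 27.8%, TCF/LEF in 17.4%, EBF in 28.3%, E2A in 48.1%, the octamer in 7.89% and MEF2 in 14.1%. Shares of RUNX, EBF and E2A above that of all distal tiles were thus not limited to called tiles.

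The ETS motif CCGGAAGT was in 0.958%, 1.32% and 0.635% of the same 3 sets, the PU.1 motif GAGGAAGT, which shares its last 6 letters, in 8.25%, 9.86% and 6.03%, and the NF-kB motif GGGANTTCC in 3.41%, 4.39% and 2.52%. The letters AGATAA, read by GATA factors, were in 51.9%, 44.7% and 50.2%, and the AP-1 motif TGANTCA was in 29.7%, 28.3% and 27.1%. In tiles low in all 4 libraries the shares were 2.06% for ETS, 12.9% for PU.1, 4.55% for NF-kB, 42.0% for GATA and 27.1% for AP-1. The CTCF consensus was in 0.293% and 0.240% of called tiles and 0.356% of all distal tiles, but in 4.34% (82 of 1889) of the tiles low in all 4 libraries. Base composition moved with these shares, since median GC content was 44.3% and 44.8% in the called sets, 47.5% in low tiles and 42.0% over all distal tiles, and its part in them was not tested. In the windows printed above, the script found RUNX and TCF/LEF letters in the Tox window, EBF letters in the 3110018I06Rik and Qrsl1 windows, GATA letters in the Qrsl1 window and E2A letters in the Cpm and Zfp36l1 windows.

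Sex was associated with few distal tiles. By edgeR with the same threshold, 8 distal tiles were called between females and males (0.00199%, against 0.00134% of all autosomal tiles), all 8 higher in females. An unadjusted p under 0.05 was found at 17813. With no minimum difference, 13 of 50 tiles were higher in males, and so were 3 of those called with tiles shifted by 500 bases. None of the 8 was called by limma, in which 20966 distal tiles had an unadjusted p under 0.05, and none was called when 1 library was left out, in fits with a term for sex but none for cell type (4495 to 5974 at an unadjusted p under 0.05). The largest difference was 51.4 points at a tile 199 kb from Satb1 (chr17:52032001-52033000): 84.8% and 85.5% in female B and T cells against 26.8% and 40.8% in male B and T cells. Reads per CpG in males were 2.05 times those in females there, and parts of the tile matched the Y chromosome at 12585 places (80% identity or more). The next were nearest to Adgrl2 (30.9 points) and Sox9 (27.5 points), with 7552 and 11643 such matches, and male depth 1.76 and 1.30 times that of females. Cox7c, Slitrk3 and Ighmbp2, named after their values were seen, were nearest to the other tiles with such matches (13375, 7371 and 236), so 6 of the 8 had them. Matches were not counted over the other distal tiles, and the part of Y reads in these differences was not tested. The tiles near Dynlt1b and Topaz1, named after their values were seen, had no such match. The Dynlt1b tile (22.5 points, male depth 0.922 times that of females) was higher in females in both cell types, at 50.2% and 30.5% in female B and T cells against 23.0% and 12.8% in the male ones. The Topaz1 tile (21.9 points) rested on 1 library, at 76.2% in female T cells against 34.5% to 37.5% in the others.

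The B minus T difference was also compared between the sexes, with female B and male T cells set against female T and male B cells. The fit for this contrast had a term for cell type and none for sex, so its 1 residual degree of freedom holds any difference between the sexes. No distal tile was called by edgeR (0 of 402184, against 0.000134% of all autosomal tiles), and 15853 had an unadjusted p under 0.05. Limma called none either, with 19237 at an unadjusted p under 0.05. With unweighted CpG means in place of the share of reads, 1 tile was called.

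The study is about intracisternal A particles (IAPs), endogenous retroviruses some of which are variably methylated between individuals. Of the 105 variable IAPs it lists, 26 overlapped 59 distal tiles. These samples were among those the list was drawn from, so the spread of its members is no independent evidence. The range over the 4 libraries had a median of 8.88 points in these tiles (1.44 to 45.7 points), against 6.03 points over all distal tiles, and the median level was 83.9% against 90.0%. Of the 59 tiles 2 were called between B and T cells (beside 1.35% of all distal tiles) and none between the sexes (beside 0.00199%). The widest tile, over the element the study names IAP_Gm13849 and 239 kb from Podxl (chr6:31803001-31804000), stood at 54.3% and 100% in the B cells of females and males and at 70.3% and 67.7% in their T cells (100 to 248 reads). The tile of IAP_Pgm1, 54 kb from Pgm2 (chr5:64038001-64039000), stood at 43.5% and 58.2% in B cells and at 46.6% and 24.4% in T cells. In both, the order of the libraries followed neither cell type nor sex. The tile of IAP_2610035D17Rik (chr11:113173001-113174000) was ordered by cell type, at 42.5% and 49.4% in female and male B cells against 18.7% and 26.5% in T cells (23.3 points, adjusted p = 5.23e-09, edgeR). This p-value rests on a spread shared by all tiles, whereas the study lists the element as variable between individuals. With 1 library per group, spread between pools of mice is not measured. A difference by cell type cannot be told apart from it here.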

How the data were processed

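Whole genome oxidative bisulfite libraries of sorted B and T cells of both sexes were used. The submitters' processing notes name Trim Galore, FastQC, Bismark 0.13.1 and build mm10; removal of duplicate reads is not given in the sources used here. For each CpG with at least 5 reads, the authors deposited a methylation level as a fraction and a read count, both strands joined. Fractions had been rounded up to 3 decimals, and methylated reads were taken as the whole number below level times reads; dividing back and rounding up gave the deposited level within 1e-06 at 100% of CpGs. Positions counted from 0, and all 18684786 CpGs shared by the 4 libraries lay on a CG of GRCm38. Coordinates are printed counting from 1.

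Reads were summed in 1-kb tiles. Methylated and unmethylated counts of all 1530528 tiles were fitted with edgeR 4.0.16 (glmQLFit and glmQLFTest, R 4.3.3) with terms for library, methylation, cell type and sex, and a common dispersion of 0.00762 from 20000 tiles. P-values were adjusted over all tiles by the Benjamini-Hochberg method. Limma on log2 of methylated over unmethylated reads (1 added to each) was an alternative, as were other limits on reads, CpGs, distance and difference, shifted tiles and leaving out each library. Y matches used blastn 2.17.0.

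Members and lists were chosen with earlier results of these data known. Named tiles were those leading the 10 groups with the largest difference in each direction among tiles called, past 20 points in each sex, with 40 reads or more in every library and at most 3 times the median depth, the 3 largest groups, the 8 lowest tiles with 10 or more CpGs, the leading tile of the 6 list genes with the largest difference, the 3 largest sex tiles and the 3 widest IAP tiles.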

Additional observations from a re-analysis of the deposited data

How the results depend on the processing

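Counts of distal tiles called between B and T cells stayed within 1.5 times 5420 under 11 of 17 alternatives, with 4259 by limma (all among the 5420). The fits with 1 library left out were also among the 11, but not all of their calls were among the 5420. The count was 15565 with no minimum difference, 2725 with 30 points, 2394 with at least 10 CpGs, 9092 from 20 kb, 3067 from 100 kb and 983 at 50 kb or more from genes of any biotype. The first pair of these loosens or tightens the threshold on the same tiles, and the others change which tiles enter; away from genes of any biotype the called share also fell, to 0.705% from 1.35%, and the cause was not tested. Tiles higher in B cells made up 65.4% to 72.3% of calls under all 17. A requirement of 20 points in each sex, added after the data were seen, gave 4272. All 20 named tiles stayed called by limma and with unweighted CpG means. Under all 6 alternatives their differences were 73.7 points or more in size. They were chosen for the largest differences in these same libraries, so staying far past 20 points largely follows from that choice. Calls between the sexes numbered 50 with no minimum difference, 2 with 30 points, 3 away from genes of any biotype, 0 by limma and 0 to 0 when 1 library was left out, and tiles shifted by 500 bases gave 8, of which 3 were higher in males; the cause was not tested. For a difference between the sexes in B minus T there were 8 tiles with no minimum difference and 1 with unweighted CpG means. Low tiles numbered 3411 from 20 kb, 931 from 100 kb, 362 away from genes of any biotype, 1051 under 20% and 4774 under 50%. The median B minus T difference ranged from 0.227 to 0.521 points when 1 library was left out. Each fit without a library kept 1 term only, for cell type or for sex, and its lone library was assumed to vary like the pair. No paired analysis was possible because the groups share no replicate numbers.

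Depth limits single tiles: with 25 reads, the fewest in any library for a distal tile, a level has a wide interval. Each file lists only CpGs with 5 or more reads, so with at least 5 CpGs per tile the limit of 20 reads removed none.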
